A study of Mus with 2 samples.

Results

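The RNA of 9 genes of the major histocompatibility complex (MHC) antigen presentation pathways was measured in sorted mouse hematopoietic stem cells (HSCs). The genes were found by symbol among the 27998 genes in the count files, and each of the 9 had a single row. They were Cd74, H2-Aa, H2-Ab1, H2-Eb1, H2-DMa and Ciita of the class II pathway, and B2m, H2-K1 and H2-D1 of class I. They were chosen with earlier results of these same libraries known, in which Cd74 and H2-Aa led a cluster made up largely of Id2-deleted cells, so the differences between the libraries are given as descriptions. The data are 1 library of Mx1-Cre ID2+/+ cells and 1 library of Mx1-Cre ID2Δ/Δ cells, named here Id2+/+ and Id2-deleted. Id2 encodes an inhibitor of DNA binding. For each, 1000 LSK FLT3- CD150+ CD48- cells (LSK cells lack lineage markers and carry Sca-1 and c-Kit) were sorted from the tibias and fibulas of 5 mice, 8 to 12 weeks old, and loaded on a 10x Genomics Chromium. According to the study's methods, Id2 was floxed in the mice that lost it, and both genotypes carried the Mx1-Cre recombinase, which is switched on by the interferon inducer pIpC in blood-forming and other cells. The cells of both genotypes were taken 2 weeks after pIpC treatment, so an interferon-inducing exposure was common to both libraries. The mice of a library were pooled, so no replicate separates mice from genotype, and no test between genotypes was made.

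MHC class II molecules present peptides taken up from outside the cell to CD4 T cells and are mainly made by B cells, dendritic cells and macrophages. The α and β chains assemble on the invariant chain, which holds the groove until peptides are loaded. MHC class I molecules, a heavy chain paired with β2-microglobulin, present peptides from inside the cell to CD8 T cells and are found on nearly every nucleated cell. Interferon γ raises both sets of genes, class II through the coactivator encoded by Ciita. Blood stem and progenitor cells of mice are known to carry some class II molecules on their surface.

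In GRCm38.p6, the RefSeq assembly with the same build as mm10, 6 of the 9 genes lie on chromosome 17. These are H2-K1 (33996012 to 34000619), H2-DMa (34119693 to 34139101), H2-Ab1 (34263227 to 34269418), H2-Aa (34282744 to 34287823), H2-Eb1 (34305867 to 34316674) and H2-D1 (35263094 to 35267497). Ciita lies on chromosome 16, B2m on chromosome 2 and Cd74 on chromosome 18. H2-K1 and H2-D1 are close relatives of each other and of the H2-Q and H2-T genes, so reads that match several of them could have been split or lost, and their single values are uncertain to that extent.

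The Id2+/+ library held 8612217 unique molecular identifiers (UMIs, each standing for 1 captured RNA molecule) and the Id2-deleted library 17140713. After cells with many mitochondrial UMIs and clusters with erythroid, haemoglobin or neutrophil markers had been removed, 262 and 416 cells were retained, with a median of 7081 and 9663 UMIs. They shared no barcode. All 12 HSC markers, Hlf, Mecom and Procr among them, were detected in both libraries, and together they stood above the empty droplets, at 997 compared with 469 CPM (counts scaled to 1000000 UMIs) in the Id2+/+ library and at 749 compared with 272 CPM in the Id2-deleted library. These markers were uneven over the retained cells. In 173 Id2+/+ and 141 Id2-deleted cells, of clusters with at least 3 HSC markers past the fold, they stood at 1316 CPM and 1257 CPM, and in the other 89 and 275 cells, of clusters with none past it, at 623 CPM and 584 CPM. The latter still stood above erythroid-like cells, at 192 CPM and 175 CPM, but were led by early B-lineage, cell-cycle, platelet or other genes, so all 262 and 416 are called retained cells here and not stem cells. Id2 had 22 UMIs in 20 of 262 Id2+/+ cells and 0 UMIs in 416 Id2-deleted cells, which allows a share of up to 0.721% of cells with a UMI. Over all barcodes the libraries held 99 and 4 Id2 UMIs, so the Id2 counts went the way of the labels. Sample labels give 383 and 686 analyzed cells. Intervals are exact, at 95%, and cover counting error only. They treat UMIs as independent, whereas the class II UMIs were concentrated in few cells.

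The 4 class II genes Cd74, H2-Aa, H2-Ab1 and H2-Eb1 were present at low levels in the retained cells of both genotypes, and each had a higher level in the Id2-deleted library. Summed, they stood at 167 CPM (356 UMIs) in Id2+/+ cells and at 236 CPM (1108 UMIs) in Id2-deleted cells, a ratio of 1.42 (1.26 to 1.60). The sum of the class I genes B2m, H2-K1 and H2-D1 was 6611 CPM and 6414 CPM, a ratio of 0.970 (0.951 to 0.990). Class I RNA was therefore abundant in the retained cells of both libraries and class II RNA was sparse, and B2m was found in all 262 and all 416 cells.

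Cd74 encodes the invariant chain. It had 124 UMIs in Id2+/+ cells (58.1 CPM) and 354 UMIs in Id2-deleted cells (75.5 CPM), a ratio of 1.30 (1.06 to 1.61). H2-Aa, the α chain of the I-A molecule, stood at 35.2 CPM (75 UMIs) and 52.9 CPM (248 UMIs), a ratio of 1.51 (1.16 to 1.98). Among the 4 genes the ratio of Cd74 was the lowest over all retained cells, and the intervals of all 4 overlapped. In cells of at least 5800 UMIs it was the highest, at 1.88 (1.45 to 2.45), compared with 1.66 for H2-Aa, 1.60 for H2-Eb1 and 1.44 for H2-Ab1. H2-Ab1, the β chain of I-A, stood at 56.7 CPM (121 UMIs) and 81.1 CPM (380 UMIs), a ratio of 1.43 (1.16 to 1.77). H2-Eb1, which encodes the β chain of the I-E molecule, had 36 UMIs (16.9 CPM) and 126 UMIs (26.9 CPM), a ratio of 1.59 (1.09 to 2.38). The α chain of I-E was not among the genes read, so this RNA does not show that the molecule was made.

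H2-DMa encodes a chain of the H2-M editor, which exchanges peptides in the groove. Its levels were 145 CPM (310 UMIs) in Id2+/+ cells and 162 CPM (759 UMIs) in Id2-deleted cells, and the interval of the ratio included 1 (1.11, 0.976 to 1.28). With TMM scaling it was 1.20 (1.05 to 1.37), and in all called cells it turned to 0.881 (0.776 to 1.002). Ciita, the class II transactivator, had 0 UMIs in the 262 Id2+/+ cells and 10 UMIs in 9 of the 416 Id2-deleted cells (2.13 CPM). The interval of its ratio began at 1.02, but at 0.855 among cells of at least 5800 UMIs and at 0.757 among all called cells, so a difference in Ciita was not resolved at these counts. No erythroid-like or neutrophil-like cell of either library had a Ciita UMI.

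Among class I genes, B2m, the shared light chain, stood at 3635 CPM and 3663 CPM (ratio 1.01, 0.981 to 1.04). The heavy chain gene H2-K1 was lower in the Id2-deleted library, at 1206 CPM compared with 1360 CPM (ratio 0.887, 0.848 to 0.928). H2-D1, the other heavy chain gene, stood at 1615 CPM in Id2+/+ cells and 1544 CPM in Id2-deleted cells (ratio 0.956, 0.918 to 0.996). Over 10454 genes with at least 20 UMIs the median log2 ratio was -0.08, against which H2-K1 stood at -0.17, H2-D1 at -0.07 and B2m at 0.01. TMM scaling of the summed counts moved every log2 ratio by 0.11, which took H2-D1 to a ratio of 1.03 and the class I sum to 1.04, so the direction of the class I difference depended on the scaling. Of the 8 members with at least 20 UMIs, H2-Aa and H2-Eb1 were at least 1.5-fold higher and none was 1.5-fold lower, compared with 3.76% and 13.2% of all genes tested. With TMM scaling these were 5.97% and 9.69%, and H2-Ab1 (1.54) joined H2-Aa (1.62) and H2-Eb1 (1.72) among the members at least 1.5-fold higher. Among all genes past 1.5-fold, 38.1% were higher with this scaling and 22.1% without it.

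The same genes were then read in the other cell kinds of the sort and in empty droplets, barcodes with 1 to 100 UMIs that hold free RNA. Erythroid-like cells (35 and 156), named by markers such as Klf1, had class II sums of 29.6 CPM and 28.2 CPM, and neutrophil-like cells (27 and 40) had 28.1 CPM and 22.03 CPM. Retained cells were thus higher than erythroid-like cells of their own library by a ratio of 5.64 (4.05 to 8.07) in Id2+/+ and 8.38 (7.15 to 9.88) in Id2-deleted samples. For Cd74 these ratios were 10.9 (5.16 to 27.8) and 31.8 (19.0 to 57.4), and for H2-Ab1 they were 2.67 (1.76 to 4.19) and 3.55 (2.93 to 4.34). Between the genotypes, the class II ratio was 0.954 (0.671 to 1.39) in erythroid-like cells, and in neutrophil-like cells, on 13 and 16 UMIs, it was 0.782 (0.353 to 1.77), an interval that includes the 1.42 of the retained cells. Class I genes had a lower CPM outside the retained cells as well, with sums of 2410 CPM and 2212 CPM in erythroid-like and 2979 CPM and 3103 CPM in neutrophil-like cells. CPM is a share of the UMIs of the cells, and erythroid-like cells had a median of 37549 and 40038.5 UMIs. Their class I sums were 3178 UMIs in 35 and 13963 UMIs in 156 cells, compared with 14104 UMIs in 262 and 30053 UMIs in 416 retained cells. A lower CPM thus need not mean fewer UMIs in a cell.

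**Figure D1:**
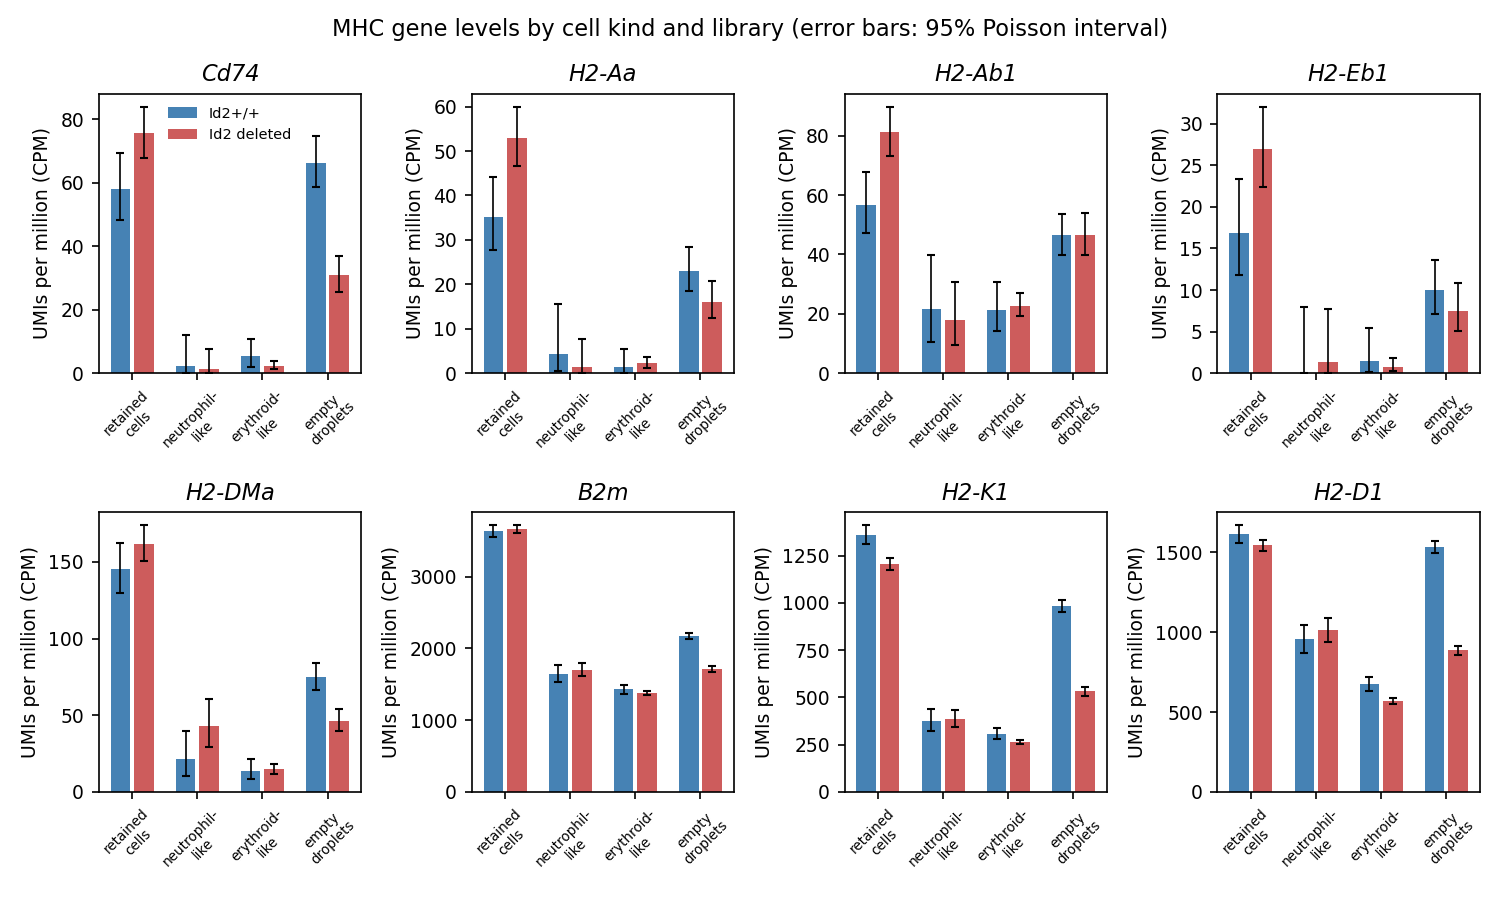
Level of 8 MHC genes in CPM (linear axes starting at 0, a different scale for each gene) in retained cells, neutrophil-like cells, erythroid-like cells and empty droplets of the Id2+/+ (blue) and Id2-deleted (red) library. Bars are levels of summed counts and error bars are 95% Poisson intervals; Cd74, H2-Aa and H2-Eb1 are near 0 in neutrophil-like and erythroid-like cells, while H2-Ab1 keeps about 20 CPM there.

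Free RNA contained class II transcripts. Empty droplets stood at 146 CPM for the class II sum in the Id2+/+ library and at 101.1 CPM in the Id2-deleted library, and for Cd74 at 66.2 CPM and 30.9 CPM. In the Id2+/+ library the Cd74 level of the cells did not exceed that of the droplets (ratio 0.877, 0.703 to 1.09), whereas Id2-deleted cells exceeded their droplets by a ratio of 2.44 (1.98 to 3.03). Haemoglobin genes put the share of free RNA in the retained cells at 10.5% and 5.41% of UMIs, which corresponds to 32.6 of the 356 class II UMIs and 25.6 of the 1108. With this profile subtracted, the class II ratio was 1.44 (1.27 to 1.64).

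The make-up of the class II signal differed between cell kinds. Cd74 supplied 34.8% of class II UMIs in Id2+/+ retained cells and 31.9% in Id2-deleted retained cells, and H2-Ab1 supplied 34.0% and 34.3%. In erythroid-like cells H2-Ab1 supplied 71.8% (55.1 to 85.0) and 80.9% (74.3 to 86.4), and Cd74 only 17.9% and 8.43%. Empty droplets lay elsewhere again, with 31.8% and 46.0% from H2-Ab1 and 45.4% and 30.6% from Cd74. The erythroid-like cells therefore held the genes in a ratio that was not that of the free RNA of their library, and the make-up in retained cells was close between genotypes.

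**Figure D2:**
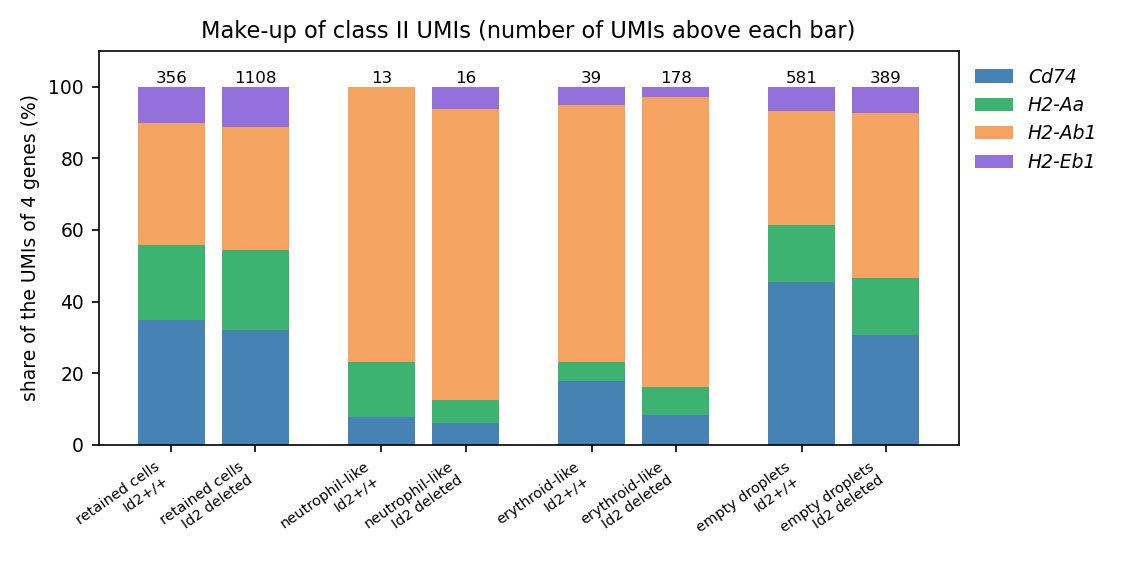
Share of class II UMIs (%) that came from Cd74, H2-Aa, H2-Ab1 and H2-Eb1 in each cell kind and library, with the number of UMIs above each bar. H2-Ab1 takes 34.0% and 34.3% in retained cells and 71.8% and 80.9% in erythroid-like cells, and the bars of neutrophil-like cells rest on 13 and 16 UMIs.

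To count cells at equal depth, each retained cell was thinned to 5800 UMIs, which left out 66 Id2+/+ cells and no Id2-deleted cell. A class II UMI was found in 43.4% (36.3 to 50.6) of the Id2+/+ and in 45.9% (41.0 to 50.8) of the Id2-deleted cells, and 2 or more in 21.4% (15.9 to 27.8) and 25.5% (21.4 to 29.954). Over 20 random draws the share with at least 1 UMI differed by -1.57 to 7.38 percentage points, and that with 2 or more was higher in the Id2-deleted library in each, by 1.62 to 7.92 points. The draws thin the same cells again and do not cover counting error between cells, and the intervals of both shares overlapped. Before thinning the shares were 50.4% and 57.7%. Erythroid-like cells thinned alike had a class II UMI in 29.4% (15.1 to 47.5) and 16.0% of cells, mostly from H2-Ab1, which was found in 23.5% and 12.8% of them. Before thinning, at a median of 37549 and 40038.5 UMIs, erythroid-like cells had one in 57.1% (39.4 to 73.7) and 55.1% (47.0 to 63.1). Cd74 had a UMI in 14.3% (9.71 to 19.98) and 18.8% (15.1 to 22.8) of thinned retained cells and in 5.88% (0.720 to 19.7) and 2.56% (0.703 to 6.43) of thinned erythroid-like cells, with overlapping intervals in the Id2+/+ library. H2-DMa had one in 60.7% (53.5 to 67.6) and 62.5% (57.7 to 67.2) of thinned retained cells and in 5.88% (0.720 to 19.7) and 8.97% (4.99 to 14.6) of thinned erythroid-like cells. Over the 20 draws its shares in retained cells ran from 56.6% to 65.8% and from 56.0% to 62.02%. They differed by -9.09 to 3.86 percentage points, so their order was not fixed.

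Class II UMIs were spread unevenly over the cells of both libraries. Thinned cells with 5 or more class II UMIs made up 5.61% (2.83 to 9.82) of Id2+/+ and 8.17% (5.73 to 11.2) of Id2-deleted cells, with overlapping intervals. Those with 3 were 3.57% (1.45 to 7.22) and 6.97% (4.72 to 9.86), and those with 4 were 1.02% (0.124 to 3.64) and 3.13% (1.67 to 5.28). The order turned for cells with 2, at 11.2% (7.17 to 16.5) and 7.21% (4.92 to 10.1), and for cells with 1, at 21.9% and 20.4%. Before thinning, the 5 highest of the 262 Id2+/+ cells had 13, 12, 11, 11 and 9 class II UMIs. The 5 highest of the 416 Id2-deleted cells, the larger and deeper set, had 70, 51, 43, 42 and 41 class II UMIs, of which Cd74 made up 33, 19, 29, 20 and 20, and all 4 class II genes were present in each. They had between 2 and 24 UMIs of HSC markers and 0 to 3 UMIs of B cell, dendritic cell and macrophage markers in all. The highest Id2-deleted cell had none of the latter.

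**Figure D3:**
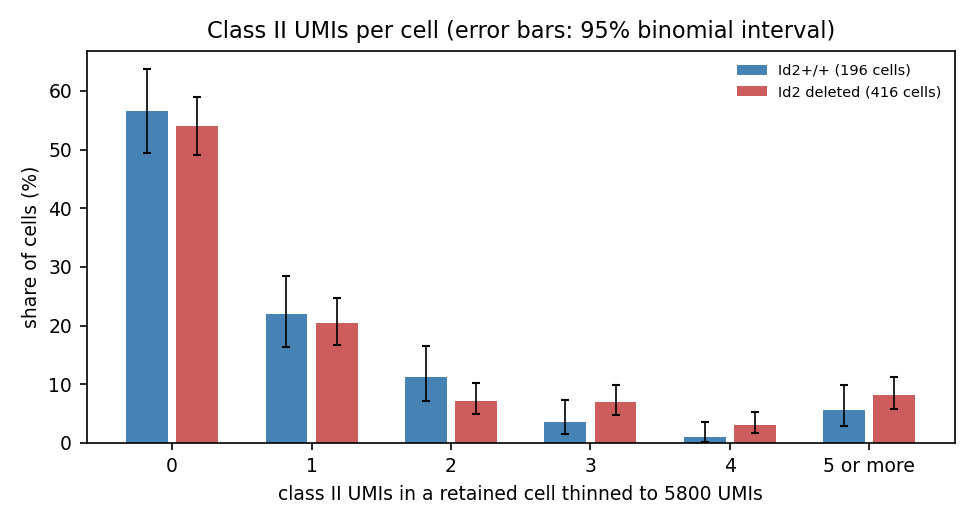
Share of retained cells (%) by the number of class II UMIs (Cd74, H2-Aa, H2-Ab1 and H2-Eb1 together) after thinning each cell to 5800 UMIs, for 196 Id2+/+ cells (blue) and 416 Id2-deleted cells (red). Error bars are 95% exact binomial intervals; cells with no class II UMI are 56.6% and 54.1%, and cells with 5 or more are 5.61% and 8.17%.

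Because so few cells carried so many UMIs, the ratios were recomputed without them. Leaving out the single highest cell of each library gave a class II ratio of 1.38 (1.22 to 1.56) and a Cd74 ratio of 1.20 (0.968 to 1.49). Without the 1% of cells with most class II UMIs the Cd74 ratio was 1.01 (0.808 to 1.28), that of H2-Eb1 was 1.36 (0.907 to 2.08), and those of H2-Aa and H2-Ab1 were 1.63 (1.22 to 2.22) and 1.33 (1.07 to 1.65). Without the 10% with most, the class II ratio was 1.18 (0.984 to 1.41) and H2-Eb1 stood at 0.667 (0.365 to 1.24). The 1% was 3 Id2+/+ and 4 Id2-deleted cells. Summed over all retained cells, the Cd74 difference was thus no longer resolved without them. That sum also holds the 66 Id2+/+ cells under 5800 UMIs, with Cd74 at 150 CPM and no Id2-deleted cell to match. The cutoff for calling cells was set within each library, and the lowest retained cells had 4419 and 6181 UMIs. A common rule of at least 1000 UMIs and 500 genes retained 298 and 530 cells. It gave a class II ratio of 1.41 (1.26 to 1.59) and a Cd74 ratio of 1.21 (1.003 to 1.48). Among cells of at least 5800 UMIs, with the cells of most class II UMIs still included, the Cd74 ratio was 1.88 (1.45 to 2.45).

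The class II genes were found together in the same cells. Among the 416 thinned Id2-deleted cells, 36 had both Cd74 and H2-Aa, compared with 14.8 if the genes fell into cells independently, and 10 of 196 Id2+/+ cells had both, compared with 3.57. H2-Aa was found in 46.2% of Id2-deleted cells with a Cd74 UMI and in 12.7% of those without, and in Id2+/+ cells in 35.7% and 8.93%. Outside the MHC genes, the genes whose thinned counts were most like the class II sum over cells of both libraries were Ly6a, which encodes Sca-1, Mbtps1, Basp1, Rpl3 and Ltb, with the smaller of the 2 within-library Pearson correlations at 0.170, 0.168, 0.164, 0.158 and 0.156 over 196 and 416 cells. Such weak values in sparse counts only rank the 7113 genes compared.

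Within the sort, class II RNA differed between clusters of retained cells, which were formed without MHC genes. The cluster led by Meg3, Fos and Dusp1, with 7 HSC markers past the fold, held 165 Id2+/+ cells and 18 Id2-deleted cells, and its class II sum was 229 CPM (201 to 259) in Id2+/+ cells. The cluster led by Iigp1, Cd74 and Phf11b, with 5 HSC markers past the fold, held 123 Id2-deleted and 8 Id2+/+ cells, and its class II sum was 481 CPM (439 to 526) in the Id2-deleted cells. Iigp1 encodes an interferon-inducible GTPase. The few Id2+/+ cells of the second cluster stood at 394 CPM (233 to 622), and the few Id2-deleted cells of the first at 235 CPM (161 to 329). Over these 2 clusters together, the ones with HSC markers, the class II ratio was 1.92 (1.65 to 2.23), that of H2-DMa 1.41 (1.16 to 1.70) and that of the class I sum 1.01 (0.978 to 1.04). Without the 1% of cells with most class II UMIs the class II ratio there was 1.57 (1.34 to 1.85) and that of Cd74 was 1.40 (1.09 to 1.81), compared with 1.95 (1.54 to 2.48) with them. In the other retained clusters, the class II ratio was 1.93 (1.53 to 2.45) on 85 and 590 UMIs. Both values lie above the ratio over all retained cells. Clusters with HSC markers had more class II RNA and held 173 of 262 Id2+/+ but 141 of 416 Id2-deleted cells. Cells of each genotype mostly filled different clusters in both sets. Of the 2 clusters with HSC markers each genotype filled a different one, and of the others 49 of 89 Id2+/+ cells lay in the cluster led by Ccl5 (79.4 CPM) and 139 of 275 Id2-deleted cells in that led by Vpreb3, where the libraries stood at 205 CPM (140 to 289) and 224 CPM (201 to 249). The ratios of both sets thus compare largely different clusters, and whether the difference belongs to the genotype or to the library cannot be told apart.

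Cd74 and H2-Ab1 parted along the clusters. In Id2-deleted cells Cd74 stood at 204 CPM (177 to 234) in the Iigp1-led cluster, at 74.1 CPM in the cluster led by Vpreb3 and Ung (139 Id2-deleted and 13 Id2+/+ cells), at 9.81 CPM (3.60 to 21.4) in the cluster led by the cell-cycle gene Ccnb2 (62 and 19 cells) and at 10.5 CPM (5.74 to 17.6) in the cluster led by the platelet genes Pf4 and Gp1bb (71 and 8 cells). H2-Ab1 covered a narrower range over the same 4 clusters, at 122 CPM, 79.9 CPM, 72.0 CPM and 57.7 CPM. In Id2+/+ cells Cd74 was 93.1 CPM (76.0 to 113) in the Meg3-led cluster and 7.74 CPM (2.11 to 19.8) in the cluster led by Ccl5 and Gm15915 (49 Id2+/+ and 3 Id2-deleted cells), compared with 61.5 CPM and 56.1 CPM for H2-Ab1. Over both libraries Cd74 supplied 42.5% (38.2 to 47.0) of class II UMIs in the Iigp1-led cluster and 9.03% (5.03 to 14.7) in the Pf4-led cluster, where H2-Ab1 supplied 50.3% (42.2 to 58.4). Only the Cd74 share there was near that of erythroid-like cells (17.9% and 8.43%). H2-Ab1 lay between all retained cells (34.0% and 34.3%) and erythroid-like cells (71.8% and 80.9%). H2-Aa supplied 19.4% and H2-Eb1 21.3%, compared with 5.13% and 7.87%, and 5.13% and 2.81%, in erythroid-like cells.

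Class II level also followed the depth of the cell. In Id2+/+ cells the class II sum was 277 CPM in the 66 cells under 5800 UMIs, 252 CPM from there to 6999 UMIs and 124 CPM, 114 CPM and 113 CPM in the deeper bands. In Id2-deleted cells it was 373 CPM (314 to 441) in the shallowest occupied band, 467 CPM (425 to 512) from 7000 to 8999 UMIs, 208 CPM from 9000 to 11999 UMIs and 125 CPM (110 to 140) in the 122 cells of 12000 UMIs or more. The ratio between libraries was thus 1.48 (1.13 to 1.94), 3.76 (2.87 to 5.01), 1.83 (1.36 to 2.50) and 1.10 (0.814 to 1.53) in the bands from 5800 UMIs upward. In class II, the 2 libraries were close only in the deepest cells. The class I sum, at a ratio of 0.970 over all retained cells, stood at 1.002 (0.951 to 1.05), 1.09, 1.07 (1.02 to 1.11) and 1.07 (1.03 to 1.12) in these bands. H2-K1 stood at 0.858, 1.07, 0.911 and 1.05 in them. Between 7000 and 8999 UMIs, where 62 and 122 cells lay, Cd74 was 26.9 CPM (13 UMIs) in Id2+/+ and 201 CPM (195 UMIs) in Id2-deleted cells, and class I differed little (ratio 1.09, 1.05 to 1.14). Without the 1% of cells with most class II UMIs, this band still had a class II ratio of 3.09 (2.27 to 4.31) and a Cd74 ratio of 5.20 (2.80 to 10.7). The bands were chosen after the data had been seen. The lowest retained Id2-deleted cell had 6181 UMIs, so that library filled the band from 5800 UMIs only in part.

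**Figure D4:**
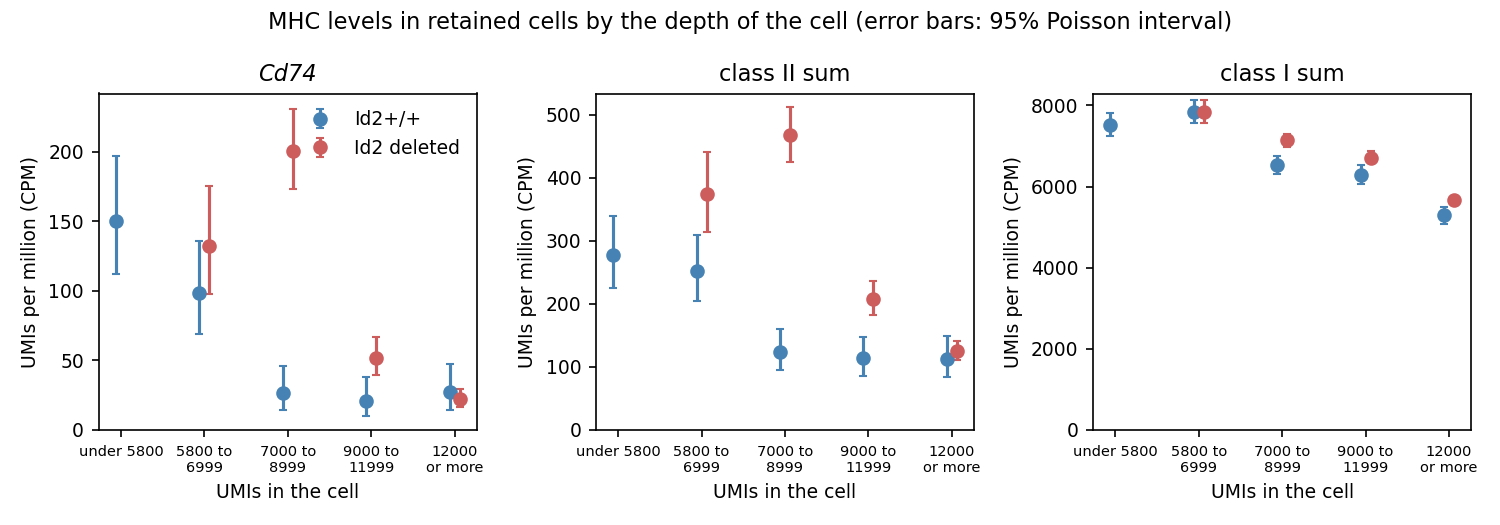
Levels of Cd74, of the class II sum and of the class I sum in CPM (linear axes starting at 0) in retained cells grouped by their UMI total, for Id2+/+ (blue) and Id2-deleted (red) cells. Points are summed counts and bars 95% Poisson intervals; no Id2-deleted cell lies under 5800 UMIs, and the libraries are farthest apart in Cd74 from 7000 to 8999 UMIs, at 26.9 CPM and 201 CPM.

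Retained cells of at least 5800 UMIs were also split by single genes, and the class II ratio was above 1 in each split. Cells with a UMI of Hlf, a transcription factor of quiescent HSCs, had a class II sum of 160 CPM (131 to 194, 85 cells) in Id2+/+ samples and of 374 CPM (344 to 407, 163 cells) in Id2-deleted samples, with a ratio of 2.34 (1.90 to 2.90). Cells without Hlf had 137 CPM and 173 CPM, a ratio of 1.27 (1.06 to 1.52). The 2 intervals of the ratio did not overlap, but they did once the 1% of cells with most class II UMIs was left out, at 1.93 (1.53 to 2.44) with Hlf and 1.33 (1.10 to 1.63) without it. Among cells with Hlf and no Cd34, a surface protein that the most dormant mouse HSCs lack, the ratio was 2.72 (1.95 to 3.87) over 38 and 70 cells. Cells with 2 or more UMIs of Pf4, a platelet factor, stood at 75.1 CPM (43 cells) and 145 CPM (105 cells). Cells at or under the median of 7 UMIs of S-phase and G2/M genes stood at 180 CPM and 359 CPM (ratio 1.99, 1.67 to 2.39), and cells above it at 115 CPM and 148 CPM (ratio 1.28, 1.04 to 1.60). Cd74 stood at a ratio of 2.78 (1.99 to 3.96) in the cells with few cell-cycle UMIs and of 3.63 (2.43 to 5.64) in those with Hlf, and without the 1% of cells with most class II UMIs these were 1.92 (1.34 to 2.82) and 2.46 (1.59 to 3.93). Above the cell-cycle median the Cd74 ratio was 0.963 (0.632 to 1.504), and 1.22 (0.771 to 2.02) without the 1%. The class I sum in the same splits had ratios from 0.960 to 1.04.

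The other genes of these pathways were read beside all genes tested, of which 41.0% had a log2 ratio above 0. Of 26 listed class II pathway genes 21 had at least 20 UMIs, and 16 of them were not among the 9 genes, with 3 of those 16 above a log2 ratio of 0, or 6 with TMM scaling, which put 52.5% of all genes above 0. None of these 16 was 1.5-fold higher and 2, H2-Ob and Rfxank, were 1.5-fold lower, beside 3.76% and 13.2% of all genes, and with TMM scaling none was past 1.5-fold in either direction. The 16 had a median log2 ratio of -0.21 compared with -0.08 over all genes. Rfxank encodes a subunit of the RFX complex that binds class II promoters and had a ratio of 0.620 (0.395 to 0.981) on 36 and 49 UMIs. Nfya, a subunit of the NF-Y promoter complex, and Creb1 had the lowest ratios among class II pathway genes with at least 100 UMIs, 0.785 (0.624 to 0.992) and 0.761 (0.544 to 1.07). Nfyb, another NF-Y subunit, had the highest ratio of those outside the 9 genes, 1.24 (0.961 to 1.61), and the RFX subunit gene Rfxap stood at 0.981 (0.745 to 1.30). Among 25 class I pathway genes tested 10 were above 0, or 14 with TMM scaling, and none was 1.5-fold higher and 1, H2-Q10, was lower, with a median log2 ratio of -0.07 (0.04 with TMM scaling). Among those with at least 100 UMIs, the proteasome activator gene Psme2 (1.36, 1.20 to 1.54) and the immunoproteasome gene Psmb10 (1.21, 1.07 to 1.37) had the highest ratios there, and the class I heavy chain relatives H2-Q6 (0.688, 0.595 to 0.796) and H2-Q4 (0.714, 0.622 to 0.820) the lowest. Of 22 interferon γ genes tested 6 were above 0, or 9 with TMM scaling. None was 1.5-fold higher and 6, each with fewer than 100 UMIs, were 1.5-fold lower, from Tgtp1 at 0.277 (0.132 to 0.562) to Jak2 at 0.626, again beside 3.76% and 13.2% of all genes. With TMM scaling 5 of the 22 were lower, beside 9.69% of all genes. Their median log2 ratio was -0.17. Among those with at least 100 UMIs, Igtp (1.24, 0.945 to 1.65) and Gbp3 (1.18, 0.833 to 1.71), interferon-inducible GTPases, were the highest, and Gbp7 (0.752, 0.603 to 0.941) and the transcription factor Irf1 (0.677, 0.528 to 0.871) the lowest, while Iigp1 stood at 1.003 (0.777 to 1.30) in spite of leading the mostly Id2-deleted cluster.

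Markers of the cells that make most class II protein were then summed in the retained cells. The 6 B cell markers in the files summed to 70.8 CPM in Id2+/+ and 42.7 CPM in Id2-deleted cells, chiefly from Cd79b, and without it to 25.8 CPM (55 UMIs) and 2.99 CPM (14 UMIs), with Pax5 at 0 UMIs in both libraries and Ms4a1 at 0 UMIs in the Id2-deleted library. The 8 dendritic cell markers summed to 5.62 CPM and 1.07 CPM, with Itgax, Siglech, Xcr1, Clec9a and Cd209a at 0 UMIs in both libraries. The 10 macrophage markers summed to 49.7 CPM and 28.8 CPM, with Adgre1 at 0 UMIs in both libraries. The macrophage sum was carried by Ly6c2, a monocyte gene that the empty droplets also held, which had 74 UMIs in Id2+/+ cells (34.7 CPM) and 38 UMIs in Id2-deleted cells (8.11 CPM). Without it the other 9 macrophage markers stood higher in the Id2-deleted library, at 20.7 CPM (97 UMIs) compared with 14.999 CPM (32 UMIs), with an interval of the ratio that included 1 (1.38, 0.917 to 2.13). Among them Cd68 had 7 UMIs in Id2+/+ and 33 UMIs in Id2-deleted cells (3.28 CPM and 7.04 CPM). The part of such cells or their RNA in the class II difference was not tested beyond leaving out the cells that held a marker. In the 116 and 200 cells with no UMI of any of these markers the class II ratio was 1.41 (1.18 to 1.70), compared with 1.42 in all retained cells. These markers do not include Vpreb1, Vpreb3, Igll1 and Mzb1, early B-lineage genes that were among the leading genes of the cluster led by Vpreb3. Its 139 Id2-deleted cells held 351 of the 1108 class II UMIs and the cell with most. The 4 genes summed to 75 UMIs in its 13 Id2+/+ cells (480 CPM) and to 7 UMIs in its 139 Id2-deleted cells (4.47 CPM), and the highest class II cell had 0. The part of these cells in the class II difference was not tested beyond their removal. Without this cluster the class II ratio was 1.48 (1.30 to 1.69) and that of Cd74 was 1.30 (1.04 to 1.64). The 139 Id2-deleted cells so removed held only 7 UMIs of the 4 genes, so these ratios do not measure the part of early B-lineage RNA.

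The pooled mice left 1 split that can be read in the counts. Cells that had Xist but lacked Y-linked UMIs numbered 84 and 231, and their class II ratio was 1.05 (0.815 to 1.36), at 103 CPM and 108 CPM. Cells that had Y-linked UMIs but lacked Xist numbered 93 and 90, and their ratio was 1.76 (1.46 to 2.12), at 228 CPM and 401 CPM. The class II level was thus higher in the cells with Y-linked UMIs in both libraries. For Cd74 the ratios were 0.659 (0.415 to 1.07) on 28 and 62 UMIs and 1.77 (1.30 to 2.42) on 60 and 150 UMIs. The share of each kind of cell differed between the libraries, and the part of the sex or of single mice in the class II difference was not tested.

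**Figure D5:**
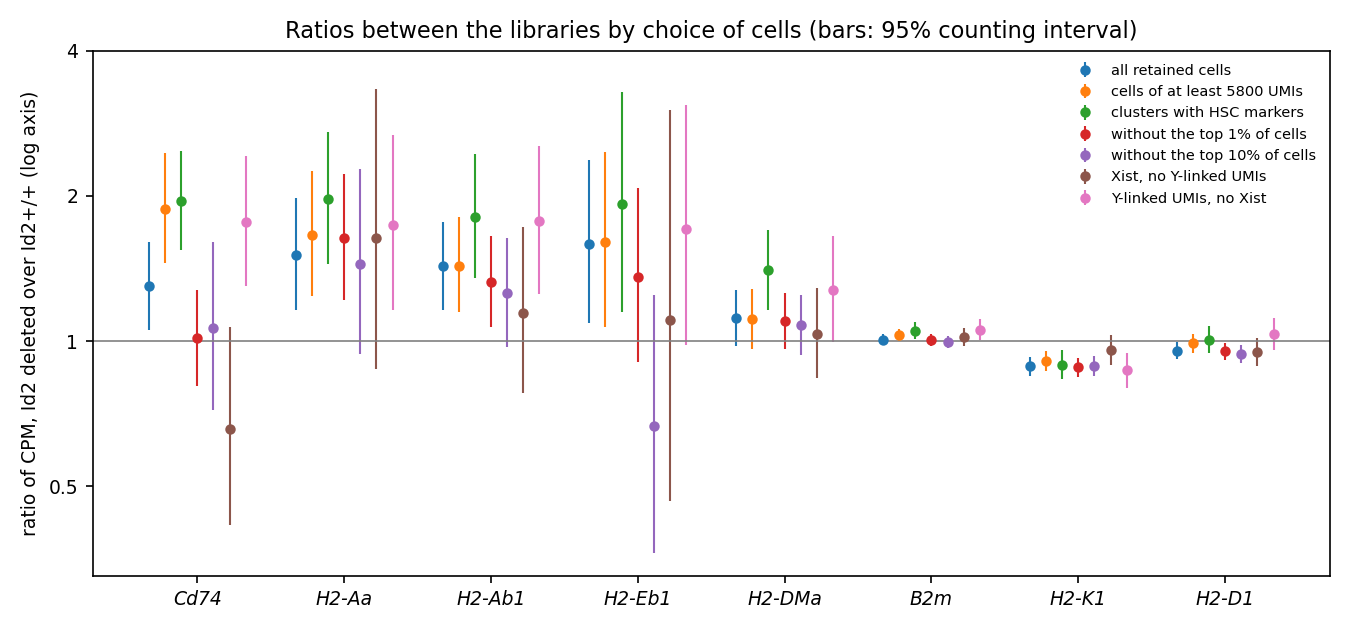
Ratio of CPM, Id2-deleted over Id2+/+, on a log axis for 8 MHC genes in 7 choices of cells (colours), with 95% counting intervals and a line at 1. The class I genes stay near 1 in each of the 7, while among these choices Cd74 runs from 0.659 among Xist-positive cells lacking Y-linked UMIs to 1.95 in the clusters with HSC markers.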

How the data were processed

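Single-cell RNA-Seq was performed by the authors on 1 library per genotype. The authors deposited unnormalized UMI counts for every barcode, without a call of cells; the submitters' processing notes name Cell Ranger 2.2.0 and mm10. Barcodes were called cells (349 and 632) from 10% of the 99th percentile of UMIs among the 1000 deepest upward, cells with 10% or more mitochondrial UMIs were removed, and cells were clustered with scanpy 1.11.5 (2000 variable genes without MHC genes, 20 components, 15 neighbours, resolution 1). The cutoff of the call was set within each library. Clusters low in HSC markers were removed when 4 or more markers of another cell kind exceeded a log2 fold of 1 and were found in 25% or more of the cells. This left 262 and 416 cells, with 4419 to 21122 and 6181 to 38740 UMIs each. HSC markers past the fold in retained clusters exceeded a log2 fold of 0.5. The cell calls shared 1 barcode between libraries, and none after removal. No doublet caller was applied; Scrublet, tried as an alternative, marked 2 of 333 and 1 of 625 cells.

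Levels are CPM of counts summed per library, with an exact Poisson interval. Ratios have the exact conditional interval, and shares the exact Clopper-Pearson interval. Limits for 0 use 3 counts. List medians added 0.5 to each count. TMM factors came from edgeR 4.0.16. Values of depth bands, of the macrophage markers without Ly6c2, of the clusters without HSC markers, of splits and of HSC-marker clusters without the 1% of cells with most class II UMIs were added after the data had been seen. Levels in the splits by Hlf, Cd34, Pf4 and cell-cycle genes came from full counts of cells of at least 5800 UMIs, and the thinned counts assigned the cells. With 1 library per genotype no test was run. The 9 genes, the lists, the markers and the alternatives were chosen with earlier results of these data known. Named besides the 9 were the 2 highest and 2 lowest ratios of each list among genes with at least 100 UMIs, and the 5 genes most like the class II sum. H2-Ob, Rfxank, H2-Q10, Iigp1, Tgtp1, Jak2, Ly6c2, Cd68, Nfyb, Rfxap and the early B-lineage genes were named after their values were seen. Gene positions are RefSeq's for GRCm38.p6. One clause of the labels gives Id2+/+ bones as the source of the Id2-deleted sample, whose title and genotype field state the deletion. The loxP sites flank the first exons of Id2, and where in the gene its UMIs lie was not determined.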

Additional observations from a re-analysis of the deposited data

Results flagged for a closer look

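The Cd74 ratio lay on opposite sides of 1 in 2 sets of cells split by sex-linked UMIs, with intervals that did not overlap. It was 0.659 (0.415 to 1.07) among Xist-positive cells lacking Y-linked UMIs, whereas cells positive for Y-linked genes and lacking Xist had 1.77 (1.30 to 2.42). The difference between them was not tested, since each set has 1 library per genotype.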

How the results depend on the processing

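No paired analysis was possible because there was 1 library for each genotype, and leaving out a replicate was not possible either. The class II ratio of 1.42 was above 1 under all 22 alternatives, 4 of which (no mitochondrial limit, resolutions 0.5 and 1.5, MHC genes kept) held the same cells and gave the same value. It moved to 1.07 (0.959 to 1.20) in all called cells, to 1.05 (0.815 to 1.36) and 1.76 in cells with Xist and with Y-linked UMIs, to 1.99 in cells with few cell-cycle UMIs and, in alternatives chosen after the data had been seen, to 1.63 in cells of at least 5800 UMIs, 1.18 (0.984 to 1.41) without the 10% of cells with most class II UMIs and 1.92 in clusters with HSC markers, so that 3 of these intervals include 1. The class I ratio of 0.970 turned to 1.04 with TMM scaling, 1.01 in cells with Y-linked UMIs and 1.01 in clusters with HSC markers, and moved to 0.836 in all called cells, 0.991 in cells with Xist, 0.997 in cells of at least 5800 UMIs and 0.996 without the cluster led by Vpreb3, also chosen after the data had been seen. Cd74 reversed to 0.939 in all called cells and 0.659 in cells with Xist, H2-Eb1 to 0.667 without the 10% of cells, and H2-D1 to 1.03 with TMM scaling, 1.03 in cells with Y-linked UMIs, 1.004 in cells with few cell-cycle UMIs, 1.01 in clusters with HSC markers and 1.003 without the cluster led by Vpreb3. H2-DMa, at 1.11, was 0.881 in all called cells. The cause of these shifts was not tested.

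The shares of Id2+/+ and Id2-deleted cells with a class II UMI, 43.4% and 45.9%, were 31.3% and 31.0% at 3000 UMIs and 35.8% and 32.5% in all called cells, and that of Id2-deleted cells was 57.7% without thinning. The shares with 2 or more, 21.4% and 25.5%, were 12.98% and 14.7%, then 15.8% and 16.0%, and 37.0% in Id2-deleted cells without thinning. The median of the class I list moved from -0.07 to -0.29 in all called cells. With 356 class II UMIs in the Id2+/+ library, ratios of single genes have wide intervals.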
